A study of Homo sapiens with 4 samples.

Results

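Crosslinking of a poly-proline-arginine (poly-PR) protein to the transcripts of 41 spliceosome genes is described here. Events were found in 40 of them, and most protein-coding genes also held events, since 3165 of 19992 others held none. The 41 genes encode core proteins of the U1, U2 and U4/U6.U5 particles, an Sm protein, and B complex and Prp19 complex factors. Serine-arginine-rich co-factors of the exon junction complete the list. The genes were taken by symbol, with no threshold on their counts, and each symbol matched a single gene among 62700 genes of GENCODE 44, of which 20033 are protein-coding genes on nuclear chromosomes. Poly-PR is a dipeptide repeat protein made from the expanded C9orf72 repeat of amyotrophic lateral sclerosis and frontotemporal dementia. In the libraries used, HEK293T cells, a human embryonic kidney line, were transiently transfected with a construct of 100 PR repeats carrying a 3xFLAG tag (PR100-FLAG). Expression was induced with doxycycline at 150 ng/ml for 24 h, cells were irradiated with UV light at 160 mJ/cm2, and RNA crosslinked to the protein was recovered with an anti-FLAG antibody by iiCLIP, a form of individual-nucleotide crosslinking and immunoprecipitation in which complementary DNAs (cDNAs) stop next to the crosslinked nucleotide. All 4 libraries came from PR100-FLAG cells. Replicates 1, 2 and 3 were purified by SDS-PAGE and replicate 4 was recovered on beads, so the purification method and the library cannot be told apart. The protein was overexpressed in a dividing cell line, and libraries of control or poly-GA cells were not analysed here, so each value below is a level of crosslinking to PR100 and no value is a change from control cells.

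The spliceosome removes introns from precursor messenger RNA. U1 recognises the 5′ splice site, U2 with its SF3A and SF3B proteins and U2AF recognises the branch site and the 3′ end of the intron, and the U4/U6.U5 tri-snRNP then joins and is remodelled into the catalytic form together with the Prp19 complex. Serine-arginine-rich co-factors such as SRRM1 and SRRM2 hold splicing factors together in nuclear speckles, and many of them carry long runs of charged residues encoded by purine-rich sequence.

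Sequences at the highest position of the strongest coding clusters of these transcripts are shown because they display a range of sequence. A cluster is a stretch that the authors' peak caller found enriched in the pooled libraries, and the 8 shown have the most cDNAs among coding clusters, with at most 2 from any gene. Each run starts 5 nt before the position with most events in the cluster and ends 24 nt after it. In these 8 clusters that position held 3 to 9 of 28 to 46 cDNAs. The clusters were 45 to 192 nt long, so most of their events lay at other positions, many of them outside the run shown. Sequences are from the RNA strand of GRCh38, written as DNA from 5′ to 3′, and capitals mark GANGA motifs, a name used here for GAAGA and the pentamers GAGGA with G and GACGA with C in the middle.
PRPF38B exon 6, chr1:108699555-108699584, plus strand: gagaagtaggggagaggtaGAAGAGAAGAa
SRRM1 exon 4, chr1:24648931-24648960, plus strand: ggagaactgtggcccctgctgctaagtgca
SRRM1 exon 16, chr1:24671418-24671447, plus strand: GAAGAaaaagaaggacaagaaacacaaaaa
LUC7L3 exon 9, chr17:50746613-50746642, plus strand: GAAGAAGAtcaaaaagccgggatcgaaagt
U2AF2 exon 11, chr19:55669638-55669667, plus strand: gtccatcgagatcccccggcctgtggacgg
SRRM2 exon 5, chr16:2758504-2758533, plus strand: accccaaagcaGAAGAAGAAGAaaaagaag
SRRM2 exon 11, chr16:2768165-2768194, plus strand: catcatcgtcgtcgtcgtcctcctcctcct
SF3B2 exon 13, chr11:66059947-66059976, plus strand: gagctgccagacttcatcaaacgcacaggc

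Of these 8 windows, 4 held a GANGA motif and 4 held none. The PRPF38B window was 93.3% purine, whereas the window in exon 11 of SRRM2, rich in pyrimidines, was 20% purine and all 9 of its whole codons were serine. The reading frame differed between windows with a motif. In SRRM2 exon 5 and in SRRM1 exon 16, 7 of the whole codons (10 and 9 in all) were lysine and none was glutamate, whereas 3 of 9 were glutamate in PRPF38B. A further 2 windows, chosen after their values were seen, show dense motifs under clusters with fewer cDNAs, with 6 of 9 whole codons glutamate in SF3A3.
RBM25 exon 11, chr14:73105988-73106017, plus strand: caaaaaacgggaccgaGAAGAAGAtGAAGA
SF3A3 exon 13, chr1:37969645-37969674, minus strand: gaGAAGAAGAGGAAGAAGAgcagatcagtg

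The libraries held 334057, 604816, 125694 and 179636 crosslink events in replicates 1 to 4, where an event is a unique cDNA mapped to a position. The paper states a minimum number of unique events for each PR100 sample that it kept. By the deposited counts, replicates 3 and 4 lay below that minimum, and the reason is not known here. Replicate 3 was the shallowest library and its random barcode was 5 nt long against 7 nt in the others. Its 467 events in the 41 genes lay at 118 positions, or 3.96 events per position, against 1.53, 1.61 and 1.05 events per position in replicates 1, 2 and 4. In the whole of replicate 3 there were 2.16 events per position, against 1.15 to 1.67 in the other libraries. The part of the barcode in these values was not tested, and tested differences that turn on replicate 3 are given with and without it. Nothing says that the libraries came from separate cultures, so p-values measure only the spread between these libraries. In the spans of the 41 genes, 374 events lay on the opposite strand, 5.37% of the events on either strand. Mitochondrial RNA took 1.30% to 6.52% of a library.

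The 41 genes held 6595 events in the pooled libraries. They made up 0.450%, 0.531%, 0.372% and 0.785% of replicates 1 to 4, with a mean of 0.535% ± 0.180 (SD, n = 4). The beads library had the highest share and replicate 3 the lowest. At least 200 events, the level from which a gene was counted as strongly crosslinked, were found in 14 of the 41 genes (34.1%), against 3.49% of all protein-coding genes. The median gene of the list held 116 events, and the median protein-coding gene held 15. The 24 hnRNP genes, another group of RNA-binding proteins, had a like share at 200 events, 9 of 24 (37.5%), and a median of 127.5, while 2 of 14 SR genes (14.3%) passed. Counts are not scaled to gene length or to the amount of each messenger RNA. The gene just inside the level was SNRNP200 with 204 events and the gene just outside was CDC5L with 191. The count of 14 depended on which libraries were pooled. It was 12 without replicate 3, 8 without replicate 1, 8 without replicate 4 and 1 without replicate 2, the deepest library. SRRM2 was the gene that remained without replicate 2. Leaving out a library lowers such a count for any list of genes. The share of all protein-coding genes that passed in these smaller pools is not given here.

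**Figure D1:**
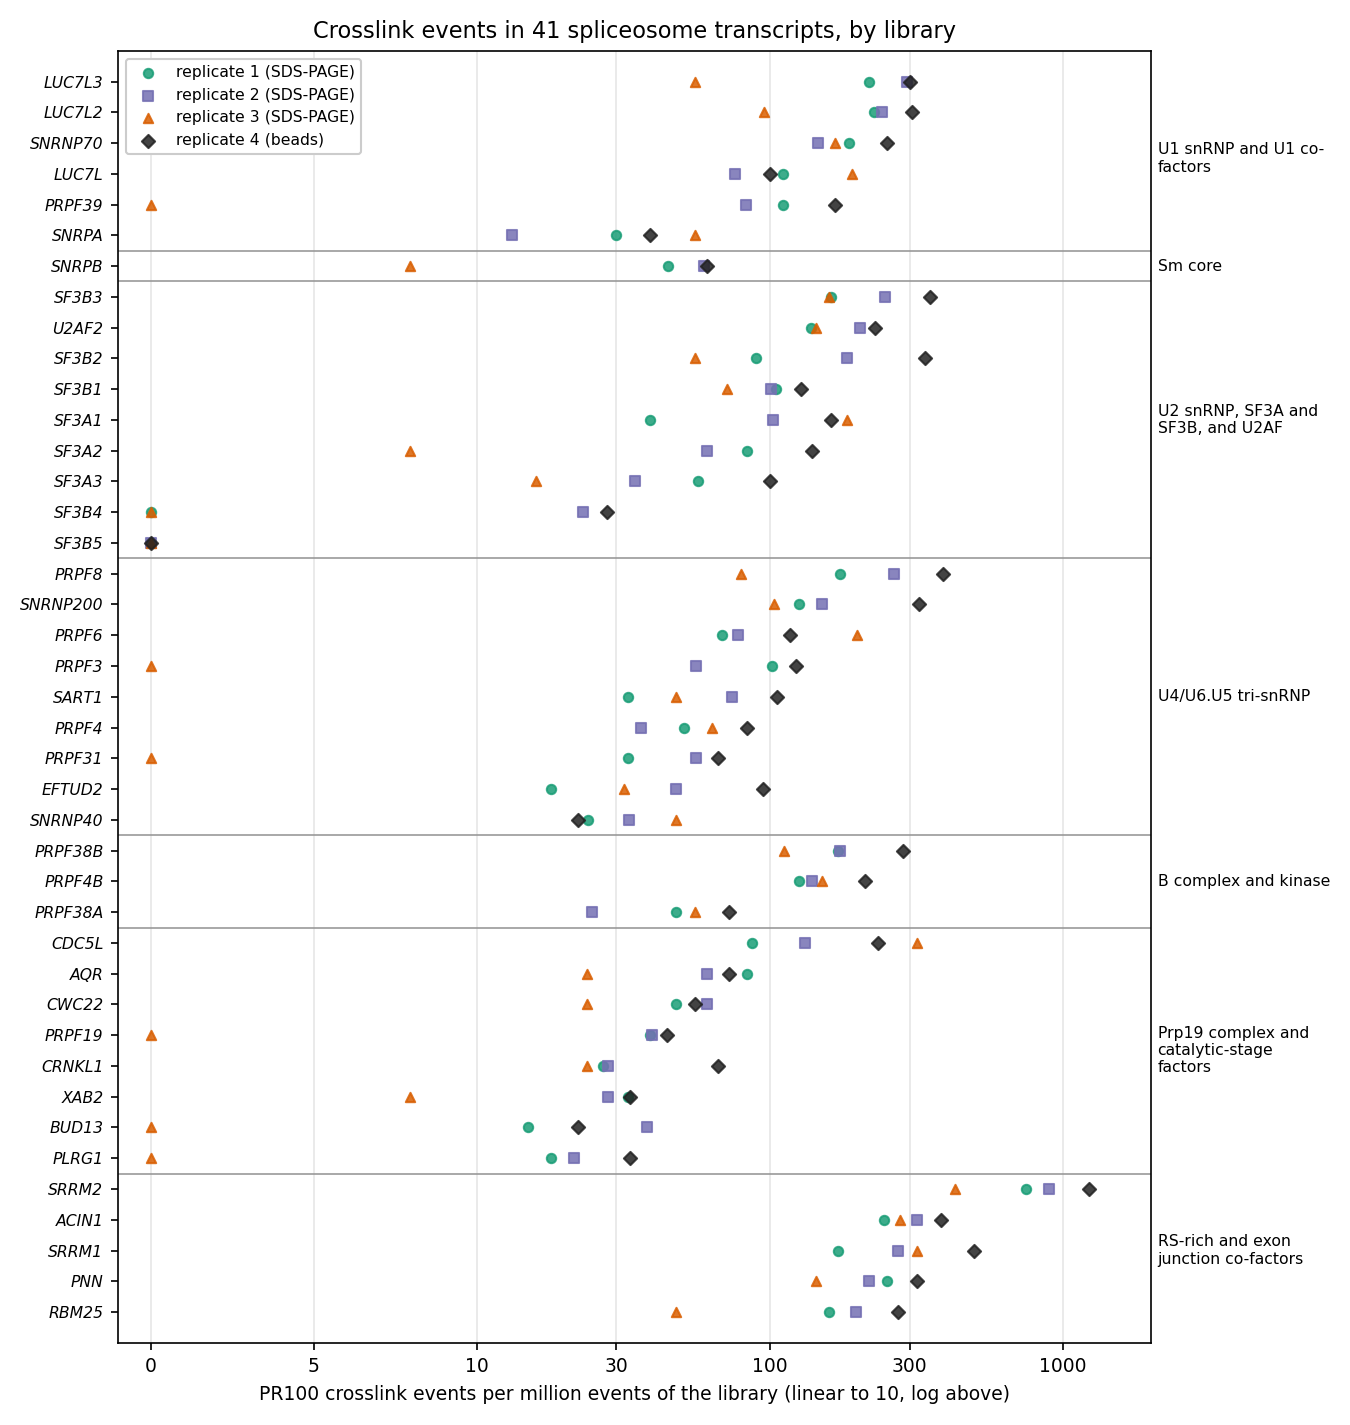
Crosslink events in CPM of each library (horizontal axis, linear up to 10 and logarithmic above) for the 41 genes, grouped by complex and ordered by pooled events. Each point is 1 library, and replicate 3 lies at 0 for 8 genes, among them SF3B5, which lies at 0 in all 4 libraries.

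The serine-arginine-rich and exon junction co-factors were the most heavily crosslinked group. Its 5 genes held 2314 of the 6595 events, and all 5 passed 200 events. SRRM2, the scaffold protein of nuclear speckles (chr16:2752626-2772538, plus strand), held 1067 events, 16.2% of the events of the list, and ranked 8 among all protein-coding genes. Its level was 748, 896, 430 and 1230 CPM (events scaled to a library total of 1000000) in replicates 1 to 4, a mean of 826 ± 332 (SD, n = 4). The next highest value of any gene and library in the list was 495 CPM, that of SRRM1 in the beads library.

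ACIN1, which encodes acinus of the apoptosis and splicing-associated complex, had 245, 317, 278 and 384 CPM in the 4 libraries. These values lay within a narrow range for the list, with a mean of 306 ± 59.6 (SD, n = 4). SRRM1, a splicing coactivator, had 171, 273, 318 and 495 CPM, and PNN, which encodes pinin of the exon junction periphery, had 251, 218, 143 and 317 CPM. RBM25, a U1-associated regulator of splice site choice, had 159, 197, 47.7 and 273 CPM. In each of these 5 genes the beads library was the highest, while the lowest library was replicate 1 for ACIN1 and SRRM1 and replicate 3 for the other genes.

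Per length of coding sequence, PNN was the most heavily crosslinked member with 123 coding events per kb, followed by SRRM2 with 108 and LUC7L3 with 107. PRPF38B with 92.7 and U2AF2 with 91.9 coding events per kb came next. These 5 genes differ in function, from speckle scaffold to polypyrimidine tract binding, and U2AF2 is less rich in arginine and serine (14.7% of residues) than SRRM2 (40.3%) or LUC7L3 (28.5%). PNN had 25.2% and PRPF38B 28.0% arginine and serine.

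The U1 group held 1090 events in 6 genes, of which 3 passed 200. LUC7L3, LUC7L2 and LUC7L are paralogues that associate with U1 and influence the choice of 5′ splice site. LUC7L3 had 219, 293, 55.7 and 301 CPM in replicates 1 to 4. LUC7L2 had 228, 241, 95.5 and 306 CPM, and LUC7L had 111, 76.1, 191 and 100.2 CPM. Replicate 3 was thus the lowest library for LUC7L3 and LUC7L2 and the highest for LUC7L, whose 24 events in that library lay at 5 positions. Of the 289 events of LUC7L2, 267 also lay inside FMC1-LUC7L2, an annotated readthrough gene on the same strand, and events of these genes could not be separated.

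SNRNP70, the U1-70K protein that binds U1 RNA, had 186, 145, 167 and 251 CPM. SNRPA, another protein of the U1 particle, held 32 events in all, with 10, 8, 7 and 7 in the 4 libraries. PRPF39, a U1 co-factor, had 37, 50, 0 and 30 events, of which 19 lay inside the intronic small nucleolar RNA SNORD127. SNRPB, which encodes Sm proteins of the ring shared by the spliceosomal particles, held 15, 36, 1 and 11 events.

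The U2 group held 1149 events in 9 genes, and SF3B3, U2AF2 and SF3B2 passed 200. SF3B3, a large structural subunit of SF3B, had 162, 248, 159 and 351 CPM in replicates 1 to 4. U2AF2, which binds the polypyrimidine tract, had 138, 203, 143 and 228 CPM. SF3B2 had 89.8, 184, 55.7 and 340 CPM, with a beads level 3.10 times the mean of the SDS-PAGE libraries, the highest ratio among members with at least 50 events. SF3B1, which contacts the branch site and is the subunit most often mutated in blood cancers, was more even, at 105, 101, 71.6 and 128 CPM.

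SF3B4 and SF3B5, further subunits of SF3B, held the fewest events of the list, by counts that are not scaled to length. SF3B4 held 0, 14, 0 and 5 events in replicates 1 to 4, and SF3B5, a gene with a single exon encoding 86 residues, held 0 events in all 4. A count of 0 in the pooled libraries allows a level of up to 2.41 CPM, by counting error alone. PLRG1 of the Prp19 complex, with 6, 13, 0 and 6 events, had the next lowest count.

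The tri-snRNP group held 1002 events in 9 genes. PRPF8, the protein that forms the cradle of the active site, had 174, 265, 79.6 and 390 CPM in replicates 1 to 4, and SNRNP200, the helicase that unwinds U4 from U6, had 126, 150.5, 103 and 323 CPM. Both were highest in the beads library and lowest in replicate 3. The other 7 genes held 38 to 116 events each, with PRPF6, which bridges U5 to U4/U6, at the top and SNRNP40, a U5 protein, at the bottom. EFTUD2, the U5 GTPase and a partner of PRPF8 and SNRNP200, held 56 events.

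Of the B complex and kinase genes, PRPF38B had 171, 174, 111 and 284 CPM and PRPF4B, a kinase that acts on tri-snRNP proteins, had 126, 139, 151 and 212 CPM. PRPF38A held 51 events. Among the 8 Prp19 complex and catalytic-stage genes, which held 516 events, none reached 200. CDC5L, a core protein of the Prp19 complex, came closest with 86.8, 132, 318 and 234 CPM, and its 40 events in replicate 3 lay at 8 positions.

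Most events in these transcripts lay in coding sequence. The coding share of the events of the list was 55.4%, 68.7%, 54.2% and 74.3% in replicates 1 to 4, a mean of 63.2% ± 9.95 (SD, n = 4). Introns held 20.6% ± 8.02, 3′ UTRs 7.54% ± 1.63, other exons 5.91% ± 1.93 and 5′ UTRs 2.82% ± 1.10. Other exons are those of transcripts of the gene that are not annotated as protein-coding, whatever their type. The beads library had the highest coding share and the lowest intron share.

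More than 50% of events were coding in 24 of the 32 members with at least 50 events, against 16.8% of protein-coding genes with as many events. The median coding share was 67.1% for the members and 21.8% for all such genes. PRPF8 was the most coding, at 93.0% (95% Wilson interval 89.5% to 95.3%), followed by PNN at 91.8% (88.0% to 94.4%) and SNRNP200 at 91.2% (86.5% to 94.3%). At the other end, LUC7L2 had 22.8% (18.4% to 28.0%). These intervals cover counting error only, and the shares are not scaled to the lengths of the regions. Coding sequence made up 7005 of the 7280 nt of the canonical PRPF8 transcript and 2151 of 3537 nt in PNN. In LUC7L3, whose coding share was 60.1%, it made up 1296 of 6987 nt.

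**Figure D2:**
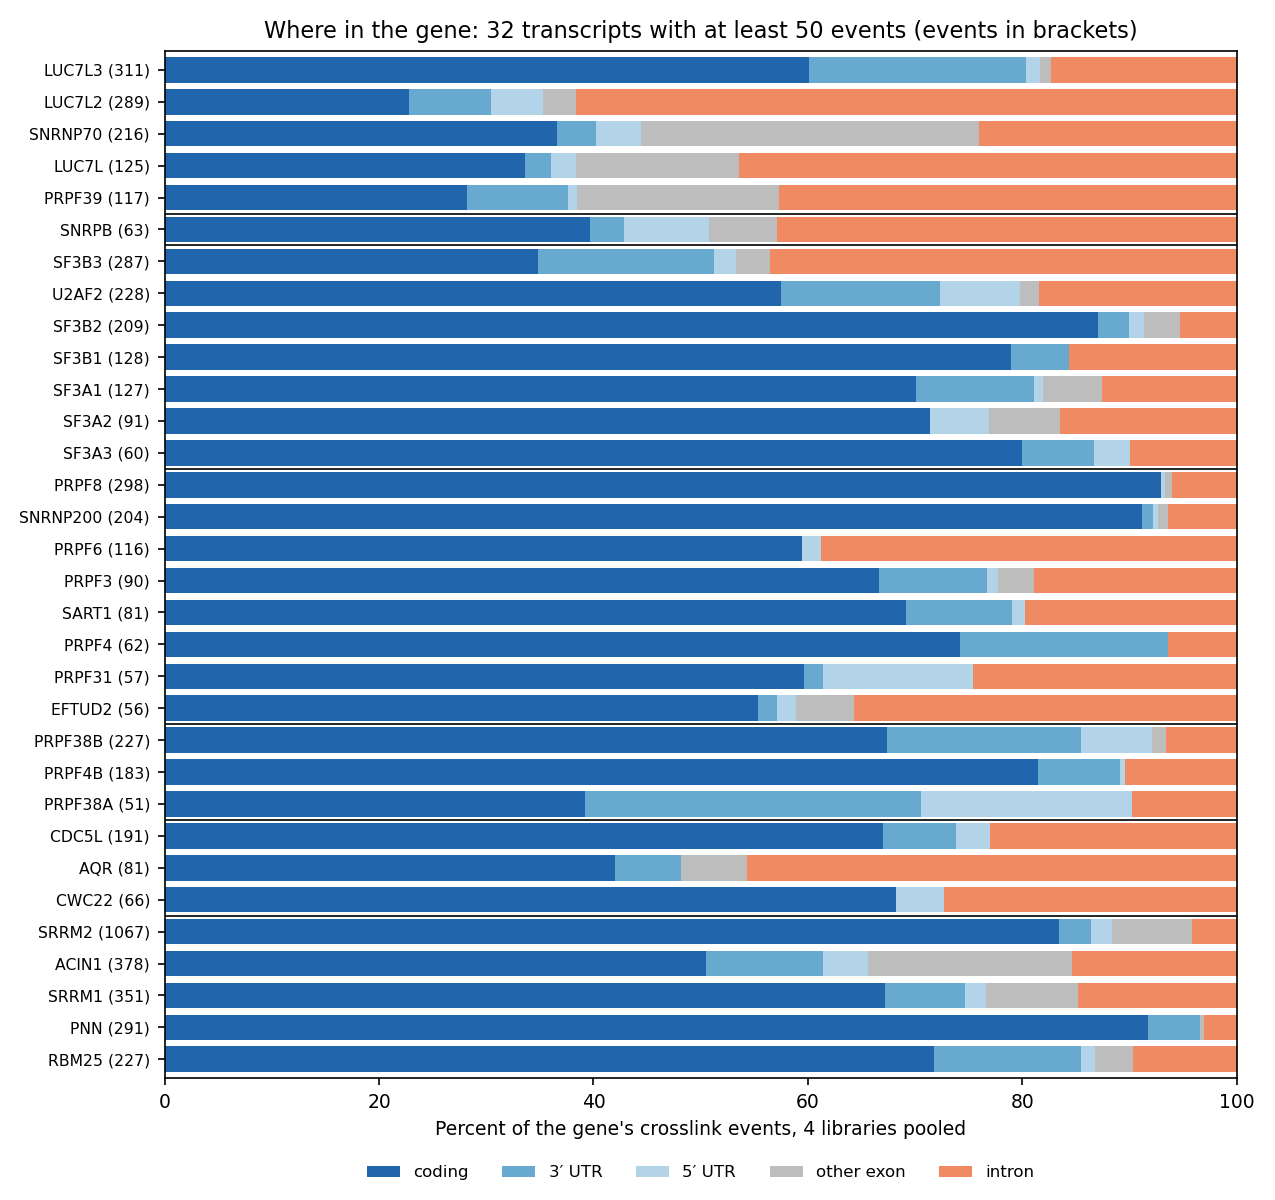
Percent of each gene's pooled events (horizontal axis) in coding sequence, 3′ UTR, 5′ UTR, other exons and introns, for the 32 members with at least 50 events, with their event counts in brackets and lines between complexes. PRPF8, PNN and SNRNP200 are more than 90% coding, whereas LUC7L2, LUC7L, AQR, SF3B3 and SNRPB have the largest intron shares.

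Scaled to length, coding sequence carried more events than introns in all 4 libraries. The log2 ratio of coding to intron density over the list was 4.57, 5.48, 4.30 and 6.09 in replicates 1 to 4, a mean of 5.11 ± 0.83 (SD, n = 4) and a fold of 34.5. Flipping the signs of the 4 library values in all ways, an exact two-sided permutation test, gave p = 0.13, the smallest that 4 libraries allow, and 0.188 after Benjamini-Hochberg adjustment over 6 tests. The design could not reach 0.05. Densities are not scaled to the amount of messenger RNA or of intron RNA in the cells.

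The coding share of the members was set beside those of other RNA-processing genes. It exceeded that of the 14 SR genes by 22.8, 23.4, 8.83 and 14.1 percentage points in replicates 1 to 4 (mean 17.3 ± 7.07, SD, n = 4, higher in 4 of 4 libraries, exact sign-flip permutation p = 0.13). Against the 24 hnRNP genes the difference was 14.3, 13.1, 15.5 and 5.17 points (mean 12.0 ± 4.66, SD, n = 4, higher in 4 of 4, exact sign-flip permutation p = 0.13). Against all other protein-coding genes it was 36.8, 38.6, 30.9 and 33.8 points (mean 35.0 ± 3.38, SD, n = 4, higher in 4 of 4, exact sign-flip permutation p = 0.13). These p-values were at the smallest this design allows and became 0.188 after adjustment. The shares are not scaled to the lengths of coding sequence, UTRs and introns, and no values scaled to length are given for the other lists. The part of region length in these differences was not tested. The SR genes held more of their events in 3′ UTRs (19.5% pooled) than the members (7.57%), as did the hnRNP genes (14.1%).

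The groups within the list differed in this respect. Pooled coding shares were 77.7% for the tri-snRNP, 75.5% for the serine-arginine-rich co-factors, 69.8% for B complex and kinase, 63.7% for U2, 62.4% for the Prp19 group and 38.3% for U1. In each library the U1 share was the lowest of these groups, at 27.8%, 41.2%, 23.9% and 50.7%. The Sm group is left out of this ranking because it is 1 gene, SNRPB, with 63 events. Its coding share was 39.7% pooled, and 26.7%, 50%, 100% and 18.2% in replicates 1 to 4, below U1 in replicates 1 and 4. The U1 group includes LUC7L2, most of whose events also lay inside the readthrough gene. The 59 other spliceosome genes outside the list held 4481 events with a median of 36, and 6 of them passed 200 (10.2%). The coding share of these 59 genes was 51.2% pooled.

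Within coding sequence, events ran along the whole of SRRM2 and were denser in some exons of other genes. Exon 11 of SRRM2, which encodes most of its repetitive serine-arginine sequence, held 665 events, 74.7% of the coding events in 81.2% of the coding length. In PNN, the coding part of exon 9 held 204 events, 76.4% of coding events in 63.1% of the coding length. Within that exon a stretch of 5 bins of 50 nt, chosen after its values were seen, held 85 events, 31.8% of the coding events of PNN in 11.6% of its coding length.

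In LUC7L3, exon 8, of 284 nt, held 69 events at 243 per kb and exon 9, of 161 nt, held 37 at 230 per kb, against 129 per kb over its whole coding sequence. The coding part of its last exon, exon 10, had 152 events per kb. In SRRM1, exon 4 held 45 events in 171 nt, or 263 per kb, and exon 16 held 41 in 210 nt, or 195 per kb, against 86.3 per kb over its coding sequence. Exon 4 of SRRM1 had 6, 17, 0 and 22 events in replicates 1 to 4, so that replicate 3 was at 0 and the beads library was the highest count, although replicate 2 was the deeper library. U2AF2 exon 11, with 43 events in 249 nt (173 per kb), and RBM25 exon 11, with 34 events in 223 nt (152 per kb), were other exons of high density. Exon 2 of PRPF4B held the most events of that gene, 71, at 59.3 per kb, near the 49.3 per kb of its coding sequence as a whole.

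Events in introns, leaving out exons of other transcripts, were few. Of 626 introns of the canonical transcripts, 383 held no such event, and the 10 with most held 30.1% of 1182 events in 4.16% of the intron length. Among members with at least 50 events, LUC7L2 had the largest intron share at 61.6%, followed by LUC7L at 46.4%, AQR, an intron-binding helicase, at 45.7%, SF3B3 at 43.6% and SNRPB at 42.9%. Intron 1 of LUC7L2 held 87 of these events, all of them also inside the readthrough gene.

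In SF3B3, 63 events lay in intron 3 and 61 of them inside the small nucleolar RNA SNORD111B, with 11, 29, 0 and 21 in replicates 1 to 4. This was also the cluster with most cDNAs in the list. SNRPB intron 5 held 24 events, 5, 12, 0 and 7 by library, all within 100 nt of its 5′ end. Intron 9 of ACIN1 and intron 7 of SNRNP70 spanned 85 and 70 events of any region. Of these, 65 and 68 fell in exons of transcripts of the same gene not annotated as protein-coding. Within 100 nt of an exon lay 10.8%, 15%, 4.55% and 24.8% of intron events in replicates 1 to 4, a mean of 13.8% ± 8.52 (SD, n = 4), against 9.18% of intron length. Replicate 3 was below that share of length and the other libraries were above it.

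GANGA motifs are purine-rich pentamers of the kind bound by several splicing regulators. The paper reported GAAGA as enriched at the PR100 crosslink sites of this experiment, in a window of the same extent. The motif and the window thus came from these data. Motif shares given here and below are therefore not independent support for the motif. The share of coding events with a motif that began no more than 5 nt before or 30 nt after the crosslinked nucleotide was 30.6%, 34.5%, 17.4% and 32.8% in replicates 1 to 4. For all coding positions of the same transcripts, weighted by their events, the share was 25.3%, 26.1%, 27.3% and 26.7%. The difference was 5.31, 8.45, −9.92 and 6.08 percentage points, above 0 in 3 of 4 libraries, and its mean of 2.48 ± 8.38 (SD, n = 4) was smaller than the spread (exact sign-flip permutation p = 0.625, adjusted p = 0.625).

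Replicate 3 alone had the opposite sign. Its coding positions with an event numbered 54, and counting each position once left its difference at −8.06 points. Without replicate 3 the mean difference was 6.61 ± 1.64 points (SD, n = 3), for which the exact sign-flip permutation p was 0.25, the smallest 3 libraries allow. Other protein-coding genes with at least 50 coding events had differences of 8.20, 8.34, 4.32 and 8.25 points, above 0 in all 4 libraries.

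By gene, 19 of 22 members with at least 50 coding events had more motifs near events than over their coding sequence, against 74.3% of 1039 protein-coding genes. The median difference was 4.39 points for these members and 5.93 points for all such genes, so the members were not above the background in size. RBM25 had 56.4% of events near a motif against 37.1% of positions, SART1 67.9% against 50.5%, SF3A2 15.4% against 11.2% and SRRM2 19.9% against 13.2%. The 3 genes with no excess were PRPF38B, SNRNP70 and SF3A1. PRPF38B had 20.9% against 22.9%, although the window shown for its strongest cluster held a doubled motif.

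From 5 to 50 nt downstream the pooled profile was between 6.10% and 8.79%, and from 5 to 50 nt upstream it was between 4.89% and 6.61%, also above the level of all coding positions. At the crosslinked nucleotide replicate 2 was above its own level of all coding positions (5.14% against 4.82%), and the other libraries were below theirs. The highest point lay downstream in replicates 2 and 4 and upstream in replicates 1 and 3, 41 and 31 nt from the crosslink. Glutamate codons, which GAAGA and GAGGA can encode in frame, made up 10.8%, 10.8%, 6.65% and 11.4% of codons in the same window in replicates 1 to 4, against 9.01%, 9.0%, 9.17% and 9.29% over the coding sequence. The difference was 0.82 ± 2.23 points (SD, n = 4, above 0 in 3 of 4, exact sign-flip permutation p = 0.625, adjusted p = 0.625), and without replicate 3 it was 1.94 ± 0.17 (SD, n = 3). Lysine codons were above base in all 4 libraries, by 0.82, 1.05, 0.68 and 1.80 points. Alanine codons were below base in all 4, with differences of −0.82, −0.47, −1.06 and −0.91 points, and leucine codons also, with −1.16, −0.85, −0.62 and −0.28 points. Arginine codons differed by 0.20 ± 0.40 points (SD, n = 4), within the spread between libraries. The codon differences other than that of glutamate were not tested.

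Clusters of the pooled libraries numbered 109 in 31 of the 41 genes and held 1746 cDNAs, 26.5% of the events of the list. Coding sequence held 93 of them, introns 6, 5′ UTRs 5, 3′ UTRs 3 and other exons 2. The share of all protein-coding genes with a cluster is not given here. Nor is the coding share of all 5596 pooled clusters, so these counts have no background beside them. SRRM2 had 18 clusters, SRRM1 9, CDC5L 7 and PNN 6. Events from all 4 libraries were present in 16 clusters and from 3 libraries in 71. Replicate 3 had no event in 76 of the 109, against 24 for replicate 1, 4 for replicate 2 and 12 for replicate 4. All 8 clusters whose sequences are given first above had events in replicates 1, 2 and 4, and only that in SRRM1 exon 16 and that in U2AF2 exon 11 had any in replicate 3. Replicate 3 gave 11 of 40 cDNAs in the SRRM1 cluster and 7 of 38 in the U2AF2 cluster. The positions with most events there held 9 and 7 cDNAs. Where these 2 windows would lie without replicate 3 is not given here. Of 91 clusters with their summit in the canonical coding sequence, 27 held a GANGA motif in the 30-nt window (29.7%), against 21.0% of such windows at all coding positions of the same genes, a difference that was not tested.

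The members summed to 4499, 5314 and 3715 CPM in the SDS-PAGE libraries and to 7855 CPM in the beads library, the highest of the 4. Of 32 members with at least 50 events, 26 had their highest CPM in the beads library, against 31.2% of protein-coding genes with as many events. The ratio of the beads level to the mean of the SDS-PAGE levels had a median of 1.68 and ran from 0.80 for LUC7L to 3.10 for SF3B2. The 6 exceptions were AQR, CDC5L, CWC22, LUC7L, PRPF6 and SF3A1. CWC22, which loads the exon junction complex, had 47.9, 61.2, 23.9 and 55.7 CPM, so that its beads level lay within the SDS-PAGE range. The count was 22 of 27 without replicate 1, 19 of 23 without replicate 2 and 28 of 31 without replicate 3, over the members that then held at least 50 events. For these counts the share of all protein-coding genes is not given here. The coding share of other protein-coding genes was also highest in the beads library, at 40.6% against 18.6% to 30.1%, and the beads library is a single library, so the part of the purification in these values was not tested.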

How the data were processed

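Crosslink positions and clusters, with counts, were deposited per library and pooled. The deposited counts are unique cDNA counts per position and strand, made by the authors by removing duplicates with the random barcode, aligning to GRCh38 with STAR (version not given in the sources used here) with up to 2 mismatches, and calling clusters with iCount on Gencode 27 at a false discovery rate of 0.05. The pooled table equalled the sum of the 4 libraries at every position.

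Here, events were assigned by strand to genes of GENCODE 44 and to regions in the order coding sequence, 3′ UTR, 5′ UTR, other exon, intron. An event inside overlapping genes counted for each (368 events of the members). CPM is events scaled to a library total of 1000000. Motifs and codons were read in the canonical transcript from 5 nt upstream to 30 nt downstream. Means over libraries were tested with exact two-sided sign-flip permutations, adjusted over 6 tests. No count model was used, since all libraries are of 1 group. Shares have 95% Wilson intervals. The steps were tested on simulated data. Calculations used SciPy 1.17.1, pandas 2.3.3 and NumPy 2.4.6 under Python 3.11.15, and Matplotlib 3.10.9 drew the plots.

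The members, the complexes and the lists of 59 other spliceosome, 14 SR and 24 hnRNP genes were chosen with earlier results of these data known. Named genes are the 10 with most events, the 5 with the highest coding density among members with at least 50 coding events, the 5 with the largest intron share among members with at least 50 events, and the 3 with fewest events. Other members were named after their values were seen, as examples of their complex. Alternatives left out each library, counted positions once, left out shared events, used canonical transcripts, left out SRRM2, used cluster events, nuclear chromosomes, a median over members, other motifs and windows, and other minimums.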

Additional observations from a re-analysis of the deposited data

Results flagged for a closer look

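Of 18 groups of 4 library values checked for a value far from the others, 1 stood out, and chance alone marks about 1 in 20 such groups. The difference in glutamate codons between coding events of the members and their coding sequence was −2.522 percentage points in replicate 3, against 1.833, 1.843 and 2.14 in replicates 1, 2 and 4. Replicate 3 had 247 coding events in the canonical transcripts, at 54 positions. The part of its depth and of its shorter random barcode was not tested.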

How the results depend on the processing

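Of 83 alternatives to 10 results, 76 left the value within the spread between libraries or within 1.5 times the count, 7 moved it and 0 reversed it. For the GANGA and glutamate differences the spread (8.38 and 2.23 points) was larger than the mean (2.48 and 0.82 points). A value of 0 would also have counted as unmoved there, so the rule says little about these 2 results. The count of members with at least 200 events moved most, from 14 to between 1 and 12 when a library was left out, to 7 with each position counted once and to 1 with a minimum of 400 events, where 0.619% of protein-coding genes passed. With a minimum of 100 events it was 21, against 12% of protein-coding genes. Each of these lowers or raises the count by its construction. With a library left out or each position counted once, the share of all protein-coding genes is not given here. Within significant clusters the coding share of the members was 83%. When at least 200 events were required, 14 members were highest in the beads library, since all 14 genes with that many were. The share of all protein-coding genes at that minimum is not given here, so this count has no background beside it. The mean coding over intron density ranged from 4.77 to 5.38 (log2). The GANGA difference ranged from 0.375 points, with the window mirrored, to 7.62 points within significant clusters. The comparisons with SR, hnRNP and other protein-coding genes used differences taken within each library. No comparison between conditions was possible because the libraries form 1 group. The beads result has no value without replicate 4, its only beads library. No test here could pass 0.05 with 4 libraries. Depth limits genes with few events, since 3 events correspond to 4.96 to 23.9 CPM in a library.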
